A study of Drosophila melanogaster with 3 samples.

Results

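Binding of CG10543 at the genes of the vacuolar ATPase (V-ATPase) was examined in whole Drosophila melanogaster embryos by chromatin immunoprecipitation sequencing (ChIP-seq). The genes were chosen from the Ensembl annotation by their names: protein-coding genes whose symbol begins with Vha, which gave 33 of the 13945 protein-coding genes on the 6 chromosome arms. All 3 samples were biological replicates of 1 group: mixed-sex embryos aged 0 to 24 h from a stable transgenic line with GFP at the C-terminus of CG10543, precipitated with an antibody against GFP. The 3 replicates came from 1 line and embryos lacking the tag were not analysed here, so signal that does not depend on the tagged protein cannot be told apart from binding. Because whole embryos were used, strong binding in few cells and weak binding in many cannot be told apart. The deposited lists hold no read counts, and the depth of each sample is unknown. The replicate lists and the list called on the pooled replicates held 30000 regions each, ranked here by the authors' signal value within each list. The deposited name of the pooled list describes it as peaks and background. In replicates 1, 2 and 3, 12593, 7016 and 7612 regions had a q-value under 0.01, so a region far down a list can be background. The set passing the irreproducible discovery rate (IDR), a filter that compares the ranks of regions between replicates, held 7545 peaks on the dm6 assembly. At every V-ATPase gene with such a peak at its start, the strongest one had the same rank in this set and in the pooled list. A place in the set thus does not show that a given region repeated in each replicate. A gene is called bound when the summit of an IDR peak lies within 500 bp of any of its annotated transcription start sites (TSSs).

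The V-ATPase is a rotary pump that acidifies lysosomes, endosomes and secretory vesicles and energises transporting epithelia. Its cytosolic V1 sector hydrolyses ATP, and its membrane V0 sector carries protons through a rotating ring of proteolipids. Flies have several genes for many subunits, of which some are used in most tissues and others mainly in testis. In flies Mitf, the homologue of mammalian MITF and TFEB, binds E-box and M-box sites at V-ATPase genes. By general knowledge of these genes, and not from any value in the files, 16 members were classed as broadly expressed and 7 as testis-type paralogues. Earlier results of these data were known when the classes were set. The other 10 were paralogues of tissue-restricted or uncertain use.

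Sequences around the start sites of members that carry the main contrasts are given first, read from the Release 6 genome of RefSeq in dm6 coordinates and in the direction of transcription. A single capital marks the annotated TSS, which in Vha68-2 directly precedes a GAGA site, and runs of capitals mark matches on either strand to the 10 motifs described below. Windows reach up to 120 bp on each side of a summit and at most 30 bases into an exon. The first 4 are the members whose IDR summits within 500 bp of a TSS have the best ranks, Vha100-2 (chr3R:18399140-18399277, minus strand), Vha68-2 (chr2L:12974137-12974351, plus strand), Vha55 (chr3R:12627800-12627953, minus strand) and Vha68-1 (chr2L:13004102-13004342, minus strand). Vha68-3 (chr2L:12978666-12978815, plus strand) is the testis-type neighbour of Vha68-2 and had no region at its TSS, and its window is centred on the TSS. The last line is a stretch of 30 bases in the transcribed start of Vha55 (chr3R:12627759-12627788, minus strand), shown for its cluster of 3 sites: an M-box form, then an E-box that shares bases with a cAMP response element.
Vha100-2: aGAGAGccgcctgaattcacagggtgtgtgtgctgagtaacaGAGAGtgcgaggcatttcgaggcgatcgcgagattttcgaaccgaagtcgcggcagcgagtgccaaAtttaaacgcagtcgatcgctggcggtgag
Vha68-2: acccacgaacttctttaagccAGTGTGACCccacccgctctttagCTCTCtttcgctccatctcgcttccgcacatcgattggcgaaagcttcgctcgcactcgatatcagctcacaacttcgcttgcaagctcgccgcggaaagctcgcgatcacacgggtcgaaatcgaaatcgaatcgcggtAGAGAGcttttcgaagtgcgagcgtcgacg
Vha55: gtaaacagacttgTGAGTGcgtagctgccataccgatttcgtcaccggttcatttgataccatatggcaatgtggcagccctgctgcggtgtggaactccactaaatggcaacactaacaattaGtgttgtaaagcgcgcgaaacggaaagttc
Vha68-1: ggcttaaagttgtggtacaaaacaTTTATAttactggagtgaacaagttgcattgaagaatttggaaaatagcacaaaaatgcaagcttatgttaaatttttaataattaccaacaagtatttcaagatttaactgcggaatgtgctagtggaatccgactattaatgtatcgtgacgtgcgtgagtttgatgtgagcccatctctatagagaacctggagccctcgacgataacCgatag
Vha68-3: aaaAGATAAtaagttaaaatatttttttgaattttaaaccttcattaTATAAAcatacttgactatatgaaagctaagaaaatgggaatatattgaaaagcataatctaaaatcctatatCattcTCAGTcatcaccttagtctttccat
Vha55 sites: cgggTCATGTGacggCACGTGACGTCAcag

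A larger share of the broadly expressed subunit genes was bound than of their paralogues. Of the 33 members, 12 (36.4%) were bound, beside 27.9% of all protein-coding genes. The broadly expressed class had 10 of 16 bound (62.5%), the testis-type class 1 of 7 (14.3%) and the other paralogues 1 of 10. No test was made of these shares, because the classes are small and were set by hand with earlier results of these data known. The same order of the broadly expressed class over the testis-type class was seen in each replicate. Among the 7545 strongest regions of each replicate, as many as there are IDR peaks, the broadly expressed class had 10, 11 and 11 genes with a region at a TSS in replicates 1, 2 and 3, or 66.7% ± 3.61 (SD, n = 3). The testis-type class had 0, 1 and 1 genes, and the other paralogues 3, 0 and 2. All protein-coding genes had shares of 24.6%, 27.8% and 30.4% in the 3 replicates.

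**Figure D1:**
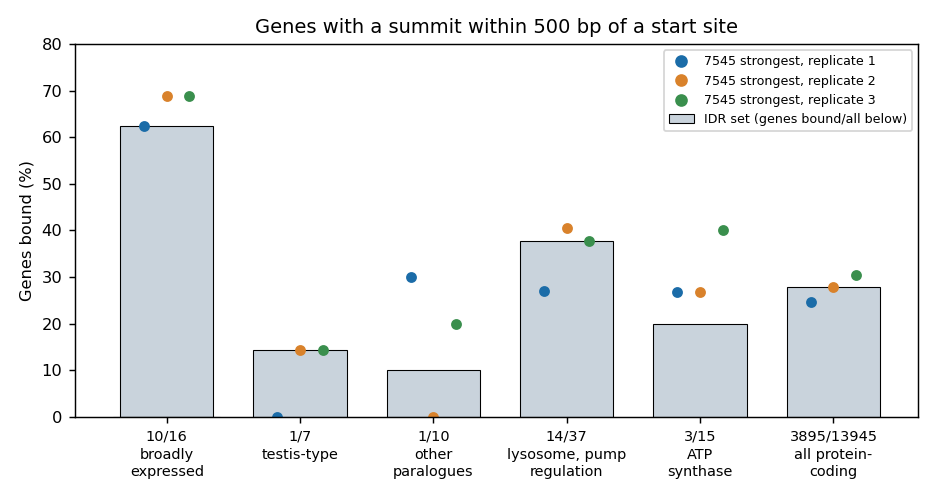
Share of genes with a summit within 500 bp of a TSS, in percent, for the 3 classes of V-ATPase genes, for 2 comparison lists and for all protein-coding genes. Bars show the IDR set, with the number bound over the number of genes under each bar, and points show the 7545 strongest regions of each replicate. In every replicate the broadly expressed class (10, 11 and 11 of 16 genes) lies above all the others.

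By sector, 7 of 13 V1 genes, 5 of 18 V0 genes and 0 of 2 accessory genes were bound, and the V0 share of 27.8% was close to that of all protein-coding genes (27.9%). The sectors differ in how many restricted paralogues they hold. Within the broadly expressed class the counts were 7 of 9 for V1, 3 of 6 for V0 and 0 of 1 for accessory genes.

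The ATP-hydrolysing head of the pump was bound at all 3 of its broadly expressed genes. Its A subunit, where ATP is split, is encoded by Vha68-2 (FBgn0263598, 2L, 12974322 to 12978607) and Vha68-1 (FBgn0265262, 2L, 13000770 to 13004107). The strongest region within 500 bp of a TSS of Vha68-2 ranked 3187, 1606 and 342 of the 30000 regions in replicates 1, 2 and 3, a mean rank of 1712 ± 1425 (SD, n = 3). Its IDR peak had rank 1106 of 7545 and a pooled signal of 626.6, with the summit 65 bp upstream of the TSS. At Vha68-1 the ranks were 7446, 1227 and 2026, so replicate 1 was far weaker than the others, with a mean of 3566 ± 3384, and the IDR peak had rank 2333. Vha55 (FBgn0005671, 3R, 12623762 to 12627829) encodes the B subunit, which alternates with A in the head. Its ranks were 3546, 2164 and 1659, the mean was 2456 ± 977, and the IDR summit at rank 2247 lay 4 bp upstream of the TSS. A weaker IDR summit inside Vha55, at rank 4897, lay 626 bp downstream of the nearest TSS. All 3 replicates placed the 3 genes among their 7545 strongest regions.

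The other broadly expressed V1 genes were also bound, apart from 2. Vha36-1 (FBgn0022097, 2R, 15541435 to 15542498), which encodes the D subunit of the rotor shaft, ranked 3897, 3822 and 1818, with an IDR rank of 2566. Vha44 (FBgn0287825, 2R, 16324813 to 16336637), the C subunit that joins V1 to V0, ranked 2449, 5467 and 1780, with an IDR rank of 2472. The outer stalks are built from the E and G subunits. Vha13 (FBgn0283536, 3R, 19643018 to 19644386), the G subunit, ranked 1972, 2814 and 3532, a mean of 2773 ± 781 (SD, n = 3), while its IDR rank was 5510. The summits in its replicates lay 126 bp downstream, 276 bp upstream and 85 bp upstream of the TSS. The replicates thus placed the summit on both sides of the TSS. Vha26 (FBgn0283535, 3R, 5591763 to 5595356), the E subunit, had no region at its TSS in replicate 1 and ranks of 3472 and 2156 in replicates 2 and 3. Its IDR peak had rank 4275. A second IDR summit, at rank 6624, lay 610 bp downstream of the TSS. The region there ranked 4520, 10104 and 10679 in replicates 1, 2 and 3.

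Of the 2 V1 genes of this class that were not bound, VhaSFD, the regulatory H subunit, fell just outside the IDR set. Its pooled region had a signal of 204.9, where the weakest IDR peak had 205.6, and it ranked 7574 of 30000. In replicates 1 and 2 it ranked 4145 and 4287, and replicate 3 had no region at its TSS. Vha14-1, the F subunit of the shaft, had no region within 500 bp of its TSS in any replicate or in the pooled list. The nearest IDR summit lay 902 bp downstream of that TSS, at rank 659, and beyond the 3' end of the gene (2R, 15679426 to 15680084).

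Among V0 genes the a subunit gene Vha100-2 had an IDR summit at a TSS with a better rank than that of any other member. In replicate 3, however, Vha68-2 and Vha55 ranked higher. This subunit carries the channels through which protons enter and leave the ring. Vha100-2 (FBgn0028670, 3R, 18390323 to 18399169) had ranks of 277, 903 and 1776 in the 3 replicates, a mean of 985 ± 753 (SD, n = 3). Its strongest IDR summit, at rank 1060 and with a pooled signal of 638.2, lay 12 bp downstream of the first TSS, in the 5' untranslated region. The region at this summit ranked 277, 5284 and 1776. The better rank of 903 in replicate 2 came from a second IDR summit, at rank 1227 and 347 bp upstream of the other TSS. The mean of 985 thus joins regions at different summits.

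The proteolipid gene Vha16-1 (FBgn0262736, 2R, 6625242 to 6633090), which encodes the c subunit of the rotating ring, ranked 867, 3917 and 4490. Its IDR summit at rank 3043 lay 48 bp downstream of a TSS. Further IDR summits inside the gene, 1655 to 3871 bp from the nearest TSS, ranked from 999 to 5293, so its strongest peak was not the one at the TSS. VhaM9.7-b (FBgn0028663, 3L, 21539862 to 21541215) encodes an e subunit, a small membrane protein. It ranked 13748, 3526 and 4176, low in replicate 1, with an IDR rank of 4570. Its peak was the only one of the 12 that was recovered in a single replicate, where recovery means a summit among the 7545 strongest within 200 bp of the IDR summit. The replicate 3 region at rank 4176 had its summit 92 bp upstream of the TSS, just beyond 200 bp from the IDR summit at 295 bp upstream.

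The remaining broadly expressed V0 genes and the accessory gene VhaAC45 had weaker regions, all outside the IDR set. VhaM9.7-a ranked 11215, 12931 and 9783. VhaAC45 ranked 7133, 12729 and 10220. VhaAC39-1, the d subunit that couples the shaft to the ring, ranked 9809, 22389 and 12936, with q-values of 0.00127, 0.508 and 0.113. VhaPPA1-1, a c'' proteolipid of the ring, ranked 12907 and 4184 in replicates 1 and 3 and had no region in replicate 2. All of the 16 broadly expressed genes except Vha14-1 thus had a region of the pooled list at a TSS. That list includes background, and the q-value of the pooled region at VhaAC39-1 was 0.0422. A further accessory subunit, the prorenin receptor homologue, carries the symbol ATP6AP2 in the annotation and so falls outside the naming rule. It was bound, with ranks of 5049, 1522 and 2669, an IDR rank of 2503 and a summit 43 bp upstream of its TSS, and is named here with its values known.

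**Figure D2:**
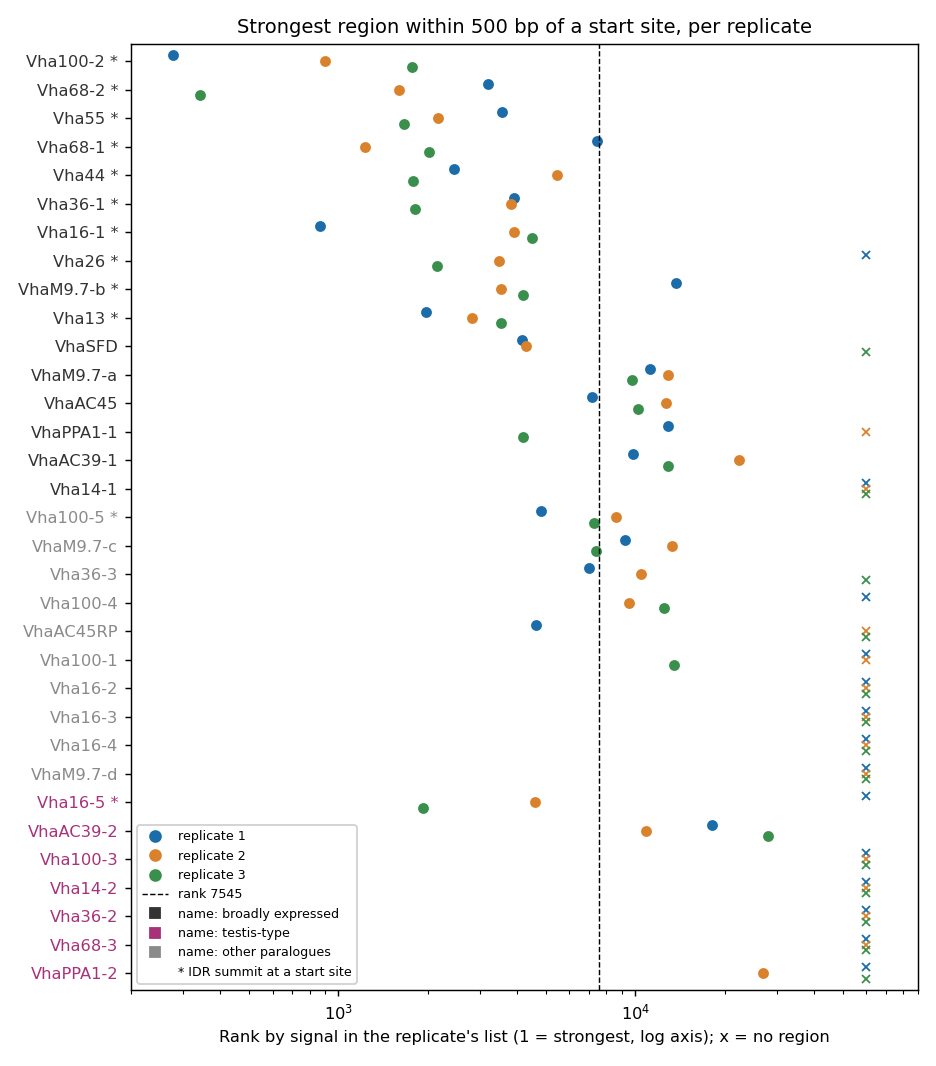
Rank of the strongest region within 500 bp of a TSS of each of the 33 V-ATPase genes in the 3 replicate lists, on a log axis. A cross at the right means that the list held no region there, the dashed line stands at rank 7545, and an asterisk marks genes with an IDR summit at a TSS. Most broadly expressed genes (dark names) lie left of the line, and 4 of the 7 testis-type genes have crosses only.

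Of the 7 testis-type paralogues 4 had no region at a TSS in any replicate, beside 37.6% of all protein-coding genes. Vha68-3 (A subunit), Vha36-2 (D), Vha14-2 (F) and Vha100-3 (a) were these 4. VhaPPA1-2 (c'') had 1 region, at rank 26867 in replicate 2 with a q-value of 0.675. VhaAC39-2 (d) ranked 18108, 10852 and 28090, weak in each replicate, with q-values of 0.0842, 0.0658 and 0.703. The only bound member of the class was Vha16-5 (FBgn0032294, 2L, 10736319 to 10737043), a proteolipid gene with no region in replicate 1 and ranks of 4610 and 1923 in replicates 2 and 3. Its summit, at IDR rank 4323, lay 268 bp upstream of its TSS but 34 bp from the TSS of CG12299 on the other strand.

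Among the 10 other paralogues the bound gene was Vha100-5 (FBgn0032373, 2L, 11738948 to 11744524), an a subunit gene, with ranks of 4828, 8591 and 7236 and an IDR rank of 6321. A stronger IDR summit, at rank 3511, lay 1775 bp into the gene. VhaAC45RP, a relative of the accessory subunit gene, ranked 4618 in replicate 1 and had no region in the others. Vha36-3 ranked 6991 and 10488 in replicates 1 and 2, VhaM9.7-c ranked 9269, 13308 and 7360, and Vha100-4 ranked 9564 and 12472 in replicates 2 and 3. These genes thus had regions in at least 1 list but fewer strong ones than the broadly expressed class. Vha100-1 had 1 region, at rank 13542 in replicate 3 with a q-value of 0.132. The proteolipid genes Vha16-2, Vha16-3 and Vha16-4 and the e subunit gene VhaM9.7-d had no region in any replicate.

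In 3 places a broadly expressed gene and a paralogue of another class stand next to each other on the same strand. In the pooled list the broadly expressed one had the stronger region at its TSS. Vha68-3 begins 178 bp after the end of Vha68-2, and no pooled region lay within 500 bp of its TSS, whereas Vha68-2 had the peak at rank 1106. Vha100-4 begins 517 bp after the end of Vha100-2. Its pooled region ranked 11388, with a signal of 148.8 beside 638.2 at Vha100-2. VhaPPA1-2 lies 2052 bp beyond VhaPPA1-1 and had no pooled region at its TSS, while VhaPPA1-1 had one at rank 9510, outside the IDR set. In replicate 2 VhaPPA1-1 had no region at its TSS, while VhaPPA1-2 had one at rank 26867 with a q-value of 0.675. The tandem proteolipid genes Vha16-3 and Vha16-2, both of restricted or uncertain use, had no region at their TSSs.

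**Figure D3:**
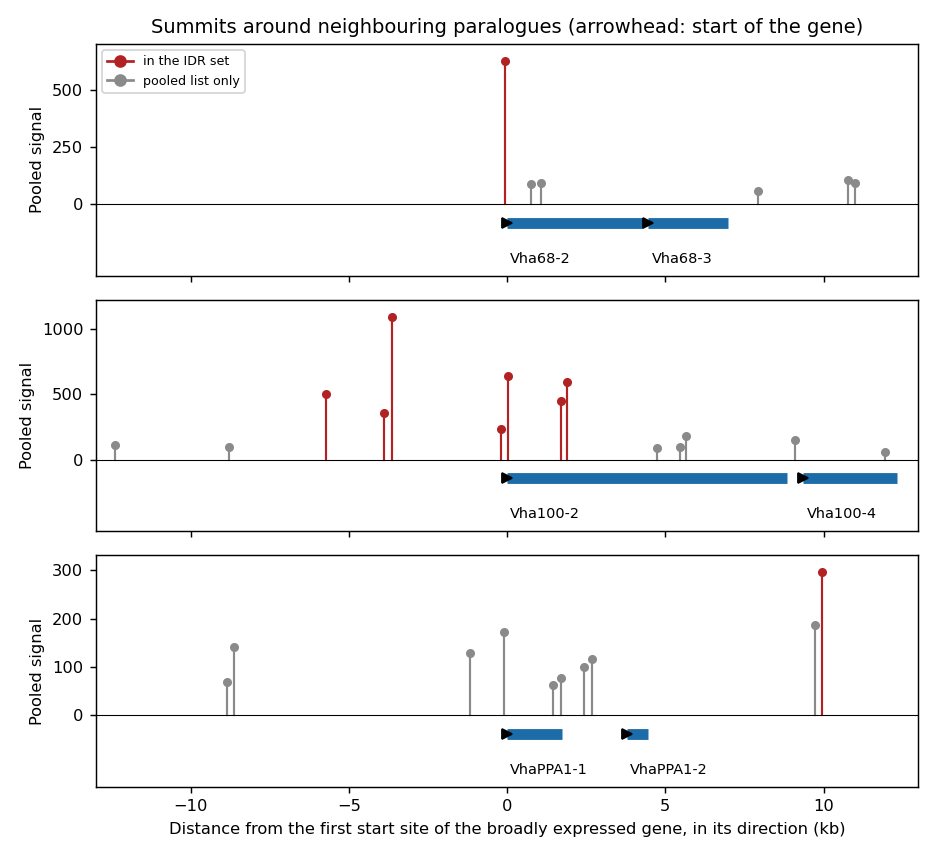
Summits of the pooled list around 3 pairs of neighbouring paralogues, placed by distance in kb from the first TSS of the broadly expressed gene in its direction of transcription. Heights are the authors' pooled signal, red marks IDR summits, and bars below are the genes with an arrowhead at the start. The summit at Vha68-2 has a signal of 626.6 and that at Vha100-2 638.2, while no IDR summit stands at the start of Vha68-3, Vha100-4 or VhaPPA1-2.

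Summits at the bound members lay close to the TSS. The strongest IDR summit was within 100 bp of the TSS at 8 of the 12 bound members (66.7%), beside 41.1% of the 3895 bound protein-coding genes, and the median distance was 56 bp beside 124 bp. It was upstream at 9 of 12 (75.0%), beside 76.1% of all bound genes. The 3 summits downstream were those of Vha100-2, Vha13 and Vha16-1, each in the 5' untranslated region of its gene. The median IDR rank of bound members was 2804.5, beside 2793 for all bound protein-coding genes.

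**Figure D4:**
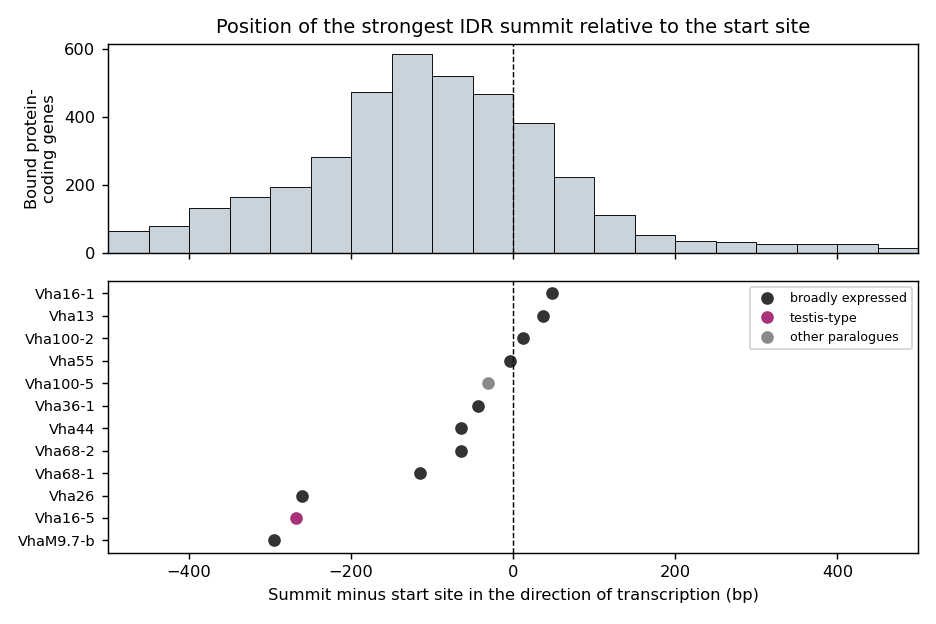
Distance from the TSS to the strongest IDR summit, in bp along the direction of transcription, for 3895 bound protein-coding genes (upper panel, genes per 50 bp) and for the 12 bound V-ATPase genes (lower panel, one point each). The members group around the TSS, with a median distance of 56 bp, except Vha26, Vha16-5 and VhaM9.7-b at 261 to 295 bp upstream.

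At 7 of the 12 bound members another protein-coding gene, in each case on the opposite strand, had a TSS within 500 bp of the summit. Over all 3895 bound protein-coding genes the share with another protein-coding TSS so near was 47.9%, on either strand. The summit of Vha68-1 lay 115 bp from its own TSS and 258 bp from that of mTor, the kinase that acts on the lysosomal surface. The summit of Vha55 lay 4 bp from its own TSS and 198 bp from that of Snx3, a sorting nexin gene. At the other 5 the partner was nearer. The summit was 43 bp from the splicing factor gene noi and 261 bp from Vha26, and 120 bp from COX8, a subunit gene of cytochrome c oxidase, and 295 bp from VhaM9.7-b. It lay 59 bp from Hmgs, the HMG-CoA synthase gene, and 64 bp from Vha44, a near tie, as at Vha36-1 (44 bp) and CG8187 (28 bp). The Vha44 summit lay in the 5' untranslated region of a longer Hmgs transcript. Vha16-5 and CG12299 are described above.

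Counts were also split by head-to-head genes, for which the most 5' start of a protein-coding gene on the other strand lies within 1000 bp upstream. Of the 16 broadly expressed genes 9 had such a partner and 6 of these were bound, beside 42.4% of all head-to-head genes. Of the 7 without a partner 4 were bound, beside 20.7% of all genes without one. Vha44 counted as one without a partner, because the most 5' start of Hmgs lies inside Vha44. With any TSS of the partner, a definition added after these values were seen, 8 of 11 broadly expressed head-to-head genes were bound beside 43.0% of all such genes, and 2 of the 5 others beside 19.7%. The testis-type class had 1 head-to-head gene, Vha16-5, and 0 of its 6 other members were bound. The part of promoter arrangement in the difference between the classes was not tested.

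The 10 motifs were searched on both strands, within 100 bp of each summit and in promoters from 250 bp before to 50 bp after the gene start. The E-box CACGTG lay in the summit windows of 3 of 12 bound members, Vha16-1, Vha44 and Vha55, and in 2.67% of the 3890 windows at IDR summits within 500 bp of a protein-coding TSS. The M-box form TCATGTG lay in 2 of 12, Vha16-1 and Vha55, beside 1.47% of all windows. At Vha55 both forms stood downstream of the TSS, centred at 59 and 48 bp, and the cAMP response element TGACGTCA at 64 bp, in the stretch printed above. That element lay in 1 of 12 windows and 0.617% of all. The E-box centre was 96 bp downstream of the TSS at Vha16-1 and 44 bp upstream at Vha44. In promoters the E-box lay in 3 of 33 members, beside 4.20% of all genes. Of these 3, Vha44 is broadly expressed and VhaAC45RP and VhaM9.7-d are other paralogues. The M-box form lay in 4 of 33, all of them broadly expressed, beside 2.09%.

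For most other motifs the members were near or below the share of all windows and promoters. Motif 1 (GGTCACACT) lay in the summit window of Vha68-2 alone, 1 of 12, beside 2.70% of all windows, and in 3 of 33 promoters beside 6.05%. The DNA replication-related element (TATCGATA) was in 0 of 12 summit windows beside 4.32%, and in 2 of 33 promoters, those of Vha55 and VhaSFD, beside 9.36%. The GAGA site (GAGAG) was in 4 of 12 windows beside 30.7%, among them both Vha100-2 and Vha68-2 printed above, and in 9 of 33 promoters beside 29.7%. The Zeste site (TGAGTG) was in 1 of 12 windows beside 10.7% and the GATA site (AGATAA) in 1 of 12 beside 12.4%; in promoters they were in 2 and 4 of 33, beside 11.9% and 18.7%. The initiator (TCAGT) was in 2 of 12 windows beside 36.1% and the TATA box (TATAAA) in 2 of 12 beside 26.5%. In promoters the initiator was in 6 of 16 broadly expressed and 5 of 7 testis-type genes, beside 51.5% of all genes. The TATA box was in 7 of 16 and 5 of 7, beside 45.8%. Summit windows of members had a median GC content of 45.8%, beside 42.3% for all such windows, and ranged from 29.4% at VhaM9.7-b to 55.2% at Vha44. A match to a motif describes the sequence only, and a window without one says nothing of a factor.

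The count of bound members changed with how peaks were assigned, and between 0 and 2 testis-type genes were counted under each rule. With a TSS distance of 200 bp, 9 members were bound beside 22.0% of protein-coding genes, and with 1000 bp 13 beside 31.7%. The added gene was Vha14-1, through a summit beyond its 3' end. Counting each peak only for its nearest TSS left 7 members, beside 22.0%: 6 broadly expressed genes and Vha100-5. Taking 1 TSS a gene, the one farthest 5', 12 were bound beside 25.2%. The 3772 strongest IDR peaks left 7 members, all broadly expressed, beside 17.6%. IDR peaks recovered in all 3 replicates were found at 7 members, again all broadly expressed, beside 17.0%. Keeping peaks recovered in both other replicates gave 9, 9 and 7 members without replicate 1, 2 and 3, beside 22.5%, 19.3% and 18.2%. With any region of the 30000 in the pooled list 22 members had one at a TSS, beside 49.0%: 15 of 16 broadly expressed, 2 of 7 testis-type and 5 of 10 other genes.

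Genes of related function gave a reference for these shares. A list of genes of lysosomal function and pump regulation, chosen by gene name with earlier results of these data known, had 37 of 38 symbols matched and 14 bound (37.8%). Among the 37 are mTor and cathD, which were matched by hand after values were seen, and without them 13 of 35 were bound (37.1%). mTor counted as bound through the summit that it shares with Vha68-1. The bound genes included Rbcn-3A, a subunit gene of the complex that assembles the pump (IDR rank 6388), and the lysosomal GTPase gene Arl8 (1271). RagA-B (2619) and Rheb (3871) of the TORC1 pathway and the cathepsin gene CtsB (3499) were bound too. So were Lamtor5 (5942), CtsF (2725) and CtsL1 (4888). RagC-D, raptor, Lamtor1, Lamtor2, Lamtor3, Lamtor4 and cathD were not bound. Nor was Rbcn-3B, also on the list, which had a region in replicate 2 only, at rank 9367. Mitf itself was not bound. It had a region in replicate 2 only, at rank 5608. Of the 15 genes whose symbol begins with ATPsyn, 3 were bound (20.0%): ATPsynE, ATPsynC and ATPsynCF6, at IDR ranks 1150, 1870 and 2058. These symbols are of the mitochondrial ATP synthase, the related rotary enzyme. Genes of that enzyme under other symbols were not counted, and no alpha subunit gene is on the list. The broadly expressed V-ATPase class thus had a share of 62.5%, above both lists and above all genes. Only the V-ATPase genes were split by class. The ATP synthase list kept ATPsynCF6L, ATPsynGL, ATPsynbetaL and ATPsynepsilonL, none of them bound. The whole V-ATPase set (36.4%) was close to the lysosomal list under the main rule, with a median IDR rank of 2804.5 beside 4379.5. With peaks recovered in all 3 replicates the shares were 21.2% and 13.5%.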

How the data were processed

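ChIP-seq of CG10543-eGFP embryos was deposited as narrowPeak region lists for each of the 3 replicates, for the pooled replicates and for the IDR set. Per the text descriptions deposited with the lists, the authors made the replicate and pooled lists from alignments of the samples and a control, and the IDR set from those lists. Which aligner, peak caller and settings were used is not given in the sources used here. Deposited by the authors were a signal value per region, a score used here only to rank and describe regions within a list, and a −log10 q-value. In replicates 1, 2 and 3, 12593, 7016 and 7612 regions had a q-value under 0.01, and 78.7%, 80.8% and 83.2% of IDR peaks were recovered. The dm6 lists were used with Ensembl release 115 and RefSeq Release 6, and the dm3 lists were not used. All summits and genes were taken from 6 arms.

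Start sites within 500 bp of a summit were found with Python 3.11.15, numpy 2.4.6 and pandas 2.3.3, checked on simulated positions. Ranks run from the highest signal. Every member is accounted for. Those with an IDR summit at a TSS have full values, and sequences were taken for the 4 best-ranked of these, while Vha68-3 and the Vha55 sites were added after their values were seen. The members, classes and lists were chosen with earlier results of these data known. No test was run, since there is 1 group, and p-values are not given. The replicates are biological replicates per the labels. In the lysosomal list 1 symbol was matched through a synonym, 2 (Tor as mTor and CtsD as cathD) by hand because the synonym was ambiguous or spelled differently, and 1 was left out.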

Additional observations from a re-analysis of the deposited data

How the results depend on the processing

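The count of all bound members (12 of 33) was within 1.5 times of its value with the TSS distance at 200 bp or 1000 bp and with the most 5' TSS only. It moved to 7 with the 3772 strongest IDR peaks and with the nearest TSS only, and to 22 with any region of the pooled list. With each replicate set aside in turn, IDR peaks recovered in both others gave 7 to 9. The IDR set made from all 3 replicates was kept, so these counts could only stay at 12 or fall. The broadly expressed count (10 of 16) moved only with the nearest TSS, to 6, and was 7 to 8 with a replicate set aside in this way. The single bound testis-type gene, Vha16-5, was lost (0) with 200 bp, the strongest peaks, the nearest TSS only, and with replicate 2 or 3 set aside. Setting a replicate aside thus gave 0 to 1. With any pooled region the count was 2. The single bound gene among the other paralogues, Vha100-5, was lost (0) in the strongest peaks and with replicate 1 or 3 set aside. That was again a range of 0 to 1, and any pooled region gave 5. The median IDR rank was between 2333 and 2804.5 with the IDR-based rules, and was not computed for the pooled list. Among the 3772 strongest peaks a lower median follows from the limit on rank. With any TSS of the partner, added after seeing the data, bound broadly expressed genes without a head-to-head partner fell from 4 to 2. Peaks recovered in all 3 replicates were found at 5 and 8 members when summits within 100 and 500 bp were taken as shared, beside 7 at 200 bp. No paired analysis was possible because all samples are of 1 group. Depth is unknown, so a missing region is not shown to be an absence of binding, and lists of 7 or 10 genes give shares that move with a single gene.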
